A study of Mus musculus with 6 samples.

Results

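Epcam, St14, Prss8, Spint1, Spint2, Rab25 and Ap1m2 encode an adhesion molecule, membrane serine proteases, inhibitors of these proteases and trafficking proteins of the epithelial surface. The 7 genes were taken by symbol from the 21966 genes of a deposited table of mRNA levels, and all 7 were found there. Epcam is a homophilic adhesion molecule of the lateral membrane of intestinal epithelium, where it binds claudins and slows their turnover. Matriptase (St14) and prostasin (Prss8) are serine proteases held in the same membrane that take part in each other's activation. The Kunitz-type inhibitors encoded by Spint1 and Spint2 restrain them. Mutations of EPCAM or SPINT2 in humans cause congenital diarrhoeas. Rab25 is a small GTPase of the apical recycling endosome, and Ap1m2 is the epithelial medium chain of the clathrin adaptor AP-1, which sorts proteins to the basolateral membrane.

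RNA-seq was carried out on cultured primary epithelial cells from mouse colon tumours to find out which transcripts respond to inhibition of the Group I Paks, a family of serine/threonine kinases. PID+ cells were derived from tumours of CDX2P-NLS-Cre;APCΔ/+;ROSA26-PID mice, which express a GST-tagged Pak inhibitor domain from the Rosa26 locus once Cre has removed a stop cassette (mice labelled 4, 7 and 26). PID- cells were derived from tumours of CDX2P-NLS-Cre;APCΔ/+ mice without this allele (mice labelled 1, 2 and 3, called normal and untreated in the labels). The study numbers its PID- lines in another way, so which of its lines these samples are is not known here. Both groups carried the deletion in Apc and the Cre transgene, whose CDX2 promoter is active chiefly in colonic and ileal epithelial cells, so the PID- cells are tumour cells and no normal tissue was compared.

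The table gives 1 FPKM per gene and condition (fragments per kilobase of transcript, scaled to library size) with the interval that CuffDiff placed around it. The 3 samples of a condition were pooled before this value was calculated, so there was no replicate check of any difference and no p-value was calculated. Log2 changes are log2 ratios of FPKM + 1, PID+ over PID-, on which weakly expressed genes appear to change less than they do. Genes with a log2 change of at least 2-fold are described as having risen or fallen. Read numbers were estimated from the steps in low FPKM values. The smallest estimate for any of the 7 genes was 795 reads, for Prss8 in PID- cells, so none was near the floor of 3 estimated reads. The same number of reads gave 1.38 times the FPKM in PID+ cells that it gave in PID- cells, and the depth itself is unknown.

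All 7 genes rose in PID+ cells, with log2 changes from 1.41 (Spint2) to 1.92 (Prss8) and a median of 1.71. A rise of at least 2-fold was seen in 3.31% of the 21959 genes used, and a fall of that size, seen in none of the 7, in 3.77%. Among the 9341 genes whose mean FPKM was 5 or more, which include all 7 (each also had more than 5 in PID- cells), 5.01% rose, 5.2% fell and 49.9% had a higher FPKM in PID+ cells. At least 3-fold rises were found for 6 of the 7 genes, all but Spint2, against 1.04% of all genes and 1.54% of those 9341. None of the 7 fell 3-fold, as 1.72% of all genes did. The deposited intervals of the conditions were apart for 1 of the 7 genes, St14, whereas this was so for 0.187% of all genes in the direction of a rise and 0.542% in the direction of a fall. The margin for St14 was 1.78 FPKM as deposited. Its intervals would overlap if PID+ values were multiplied by 0.931 to set total FPKM equal, or by 0.648 to set Gapdh equal. Over the 9341 genes the log2 changes had a median of -0.0012. In bulk samples such as these, fewer cells of a type and less RNA per cell cannot be told apart.

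The 7 log2 changes spanned 0.51 with the pseudocount of 1, which shrinks that of Prss8 most. The plain FPKM ratios ran from 2.68 (Spint2) to 4.35 (Prss8), and the log2 changes with a pseudocount of 0.1 from 1.42 to 2.10. The intervals are wide, so how alike the 7 changes were is not settled. The stretch of 0.51, set by the 7 genes themselves, held 133 of those 9341 genes, or 1.42%. Of the 9341, 2.15% had a larger log2 change than Spint2, the lowest of the 7. The 7 genes lie on 5 chromosomes. Subtracting the median log2 change of the genes on each gene's own chromosome left values from 1.17 (Spint2) to 1.92 (St14). Summed over the 7 genes, FPKM came to 1041 in PID+ cells against 330.3 in PID- cells, a ratio of 3.15. Gapdh reached 2570.3 FPKM in PID+ cells against 1666 in PID- cells, and setting it equal shifted the median log2 change of the 9341 genes by -0.58. The 7 log2 changes were then between 0.79 and 1.33. On that scale 6 of the 7 genes were at least 2-fold higher, without Spint2, and 0 were at least 3-fold higher. Among all 21959 genes, 259 were then at least 2-fold higher, 76 at least 3-fold higher and 2408 at least 2-fold lower.

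**Figure D1:**
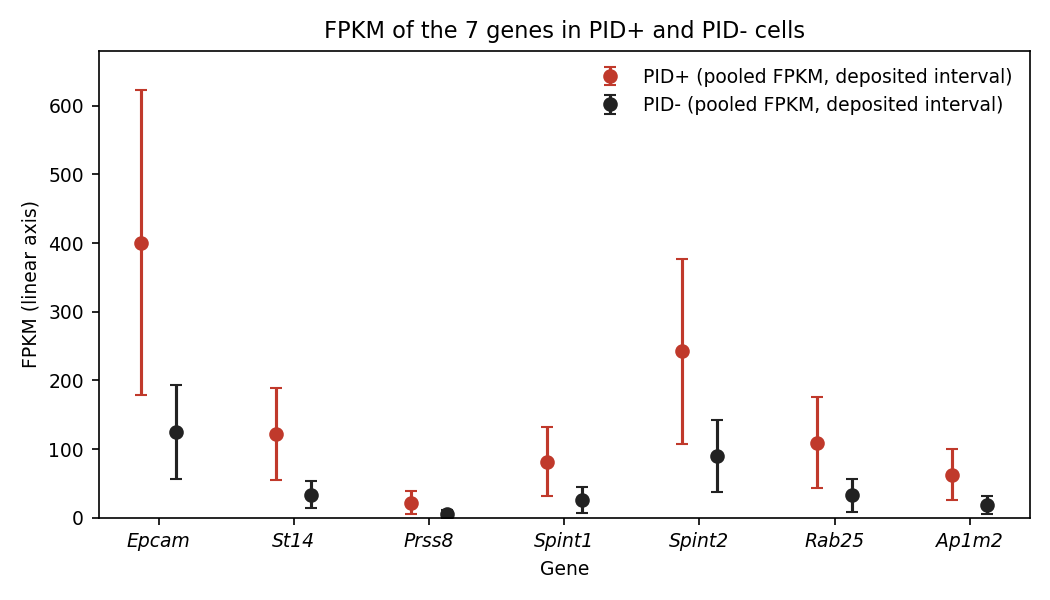
FPKM (linear axis) of the 7 genes in PID+ (red) and PID- cells (black). Points are the pooled values and bars the deposited intervals, which overlap between the conditions for 6 genes and are apart for St14 by 1.78 FPKM.

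The order of the genes by FPKM was the same in both conditions. From high to low it was Epcam, Spint2, St14, Rab25, Spint1, Ap1m2 and Prss8. All 6 pairs of neighbours in this order had overlapping intervals in PID+ cells, and all 6 had them in PID- cells, so that adjacent levels did not differ beyond their intervals. In PID+ cells Epcam ranked 176 by FPKM among the 21959 genes and Prss8 ranked 4426. In PID- cells these ranks were 632 and 9271.

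Epcam (ENSMUSG00000045394.8, chr17:87635979-87651129, plus strand, GRCm38) was the most abundant of the 7 mRNAs. Its FPKM was 401 in PID+ cells, with an interval from 178 to 623, and 124 in PID- cells, with an interval from 55.96 to 193. The level in PID+ cells was 3.22 times that in PID- cells (log2 change 1.68), and the lower bound in PID+ cells lay just below the upper bound in PID- cells. No stretch of 50 bases in its protein coding transcripts occurs in the transcripts of another gene.

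Around Epcam, 15 genes were listed for proteins that bind it in the membrane or cleave it, each at a mean FPKM of 5 or more. Of these, 3 rose, Cldn7 and Cd44 among them, none fell 2-fold, and 12 stayed within 2-fold, at a median log2 change of 0.22. On the Gapdh scale the median was -0.39 and 2 genes were at least 2-fold lower, as were 2408 of all 21959 genes. Cldn7, the claudin that forms a complex with Epcam, reached 274 FPKM in PID+ cells against 79.4 in PID- cells (log2 change 1.77). Epcam over Cldn7 was 1.46 in PID+ and 1.57 in PID- cells, so the pair rose nearly in step. Cd44, the hyaluronan receptor found in such complexes, reached 488 FPKM in PID+ cells against 231 in PID- cells (log2 change 1.08, or 0.45 with Gapdh set equal). The tetraspanin gene Tspan8 reached 105 FPKM in PID+ cells against 205 in PID- cells (log2 change -0.95, or -1.05 with equal total FPKM and -1.57 with Gapdh set equal). The intervals of Cldn7, Cd44 and Tspan8 overlapped between the conditions. The genes of the sheddases and of γ-secretase, which release the ectodomain and the intracellular domain of Epcam, were among the 12 within 2-fold, although Adam10, the gene of a sheddase (chosen after its values were seen), was at -1.30 with Gapdh set equal.

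Of the proteases, St14 (ENSMUSG00000031995.5, chr9:31089402-31131853, minus strand) encodes matriptase, which cleaves and activates other membrane proteins at the epithelial surface. Its FPKM was 122 in PID+ cells, with an interval from 55.2 to 189.7, and 33.7 in PID- cells, with an interval from 13.9 to 53.5. The ratio was 3.64 and the log2 change 1.83. Among the 7 genes it was the only one whose deposited intervals were apart, by a margin that was small beside their width. The pseudogene Gm16071 lies within the locus but shares no stretch of 50 bases with the transcripts of St14.

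Prss8 (ENSMUSG00000030800.9, chr7:127925716-127930104, minus strand) encodes prostasin, a protease with a glycosylphosphatidylinositol anchor that regulates the epithelial sodium channel. Its FPKM was 22.03 in PID+ cells, with an interval from 5.66 to 38.4, and 5.07 in PID- cells, with an interval from 0 to 11.8. It was the least abundant of the 7 mRNAs and had the largest ratio, 4.35, and the widest relative interval, reaching 134% of the FPKM upwards in PID- cells and stopping at 0 below. The end of Prss8 overlaps that of Kat8 on the opposite strand, and the library kit did not record strand. In the annotation 3.95% of the 50-base stretches of Prss8 occur in Kat8 transcripts on one strand or the other, so reads there could belong to either gene. Kat8, looked up for this overlap, reached 8.33 FPKM in PID+ cells against 7.93 in PID- cells (log2 change 0.06, or -0.48 with Gapdh set equal). St14 was 5.56 times as abundant as Prss8 in PID+ and 6.64 times in PID- cells, and the log2 changes of the pair differed by -0.09 (St14 minus Prss8).

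The list of membrane serine proteases held 23 genes, including St14 and Prss8. Of these, 9 rose, none fell 2-fold and 14 stayed within 2-fold, and the median log2 change was 0.47. An FPKM under 1 in both conditions was recorded for 13 of them, so the median mostly describes genes with hardly any mRNA. The other listed genes at a mean FPKM of 5 or more numbered 5, and all 5 rose, with a median of 1.34 and overlapping intervals. Among them, Tmprss4 (12.7 FPKM in PID+ against 4.55 in PID- cells) and Prss27 (11.7 against 4.01) were under 5 in PID- cells. They passed the filter only through PID+ cells, so their rise partly decided that they were counted. Of the 5, Tmprss11e, a protease of the HAT/DESC subfamily, changed most, with 38.1 FPKM in PID+ cells against 9.91 in PID- cells (log2 change 1.84). Tmprss13 reached 2.86 FPKM in PID+ cells against 0.173 in PID- cells (log2 change 1.72). With a pseudocount of 0.1, which shrinks weakly expressed genes less, 12 of the 23 genes were at least 2-fold higher and the list median was 1.05. On this scale 1434 of all 21959 genes were at least 2-fold higher. Tmprss13 was then at 3.44, Tmprss11d at 3.29, Hpn (at 0 FPKM in PID- cells) at 2.81 and Tmprss11e at 1.93. Tmprss11d and Hpn were chosen after their values were seen. With Gapdh set equal, 5 of the 23 genes were at least 2-fold higher, as were 259 of all 21959 genes. The 5 were St14, Prss8, Tmprss11e, Tmprss13 and Tmprss11d. Of the 5 other genes at a mean FPKM of 5 or more, 4 were then within 2-fold.

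Spint1 (ENSMUSG00000027315.10, chr2:119237362-119249527, plus strand) encodes the transmembrane inhibitor HAI-1, which binds matriptase at the cell surface. Its FPKM was 82.01 in PID+ cells, with an interval from 31.9 to 132, and 25.9 in PID- cells, with an interval from 7.53 to 44.2. This was a ratio of 3.17 and a log2 change of 1.63, with overlapping intervals.

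Spint2 (ENSMUSG00000074227.8, chr7:29256323-29281912, minus strand) encodes the related inhibitor HAI-2, which is needed for the integrity of the intestinal epithelium. Its FPKM was 242 in PID+ cells, with an interval from 108 to 376, and 90.3 in PID- cells, with an interval from 38.1 to 143. It had the smallest ratio of the 7 genes, 2.68, and the largest overlap of intervals in FPKM. By pooled FPKM, Spint2 mRNA was 2.95 times as abundant as Spint1 mRNA in PID+ and 3.49 times in PID- cells. The intervals of the pair overlapped in each condition, so their order is not settled.

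By pooled FPKM, each inhibitor transcript exceeded each protease transcript in both conditions, except for Spint1 against St14. Only for Spint2 against Prss8 were the intervals of the 2 genes apart within a condition, and this was so in both. The summed FPKM of Spint1 and Spint2 was 2.24 times that of St14 and Prss8 in PID+ and 3.0 times in PID- cells, so the quotient in PID+ cells was 0.748 of that in PID- cells. This quotient does not depend on how the libraries were scaled. Spint1 over St14 was 0.670 in PID+ and 0.768 in PID- cells. Spint2 over St14 was 1.98 and 2.68. Each of the 4 quotients of an inhibitor to a protease was lower in PID+ cells, the largest step being that of Spint2 over Prss8, from 17.8 in PID- cells to 10.99. The differences between the log2 changes behind them are small beside the widths of the intervals.

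The list of serine protease inhibitors held 18 genes, including Spint1 and Spint2, of which 4 rose, 1 fell and 13 stayed within 2-fold, with a median log2 change of 0.0046. In both conditions 8 of the 18 were under 1 FPKM, and the 9 at a mean FPKM of 5 or more had a median of 0.96. Without Spint1 and Spint2, the 7 left of these had a median of 0.27, with 4 higher and 3 lower in PID+ cells. Next to Spint1 and Spint2, the listed genes Slpi and Serpinb5 rose, with overlapping intervals. Slpi, a secreted inhibitor of leukocyte elastase, reached 47.2 FPKM in PID+ cells against 13.3 in PID- cells (log2 change 1.75). Serpinb5 (maspin), a serpin by family, reached 32.4 FPKM in PID+ cells against 9.95 in PID- cells (log2 change 1.61). Whether it inhibits proteases was not examined here. With Gapdh set equal, 3 genes of the list were at least 2-fold lower, as were 2408 of all 21959 genes.

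Among 15 genes for substrates and receptors of matriptase and prostasin, 6 rose, 1 fell and 8 stayed within 2-fold, with a median log2 change of 0.84. With Gapdh set equal, 3 were at least 2-fold higher, as were 259 of all 21959 genes, and the median was 0.31. Scnn1a, the α-subunit of the epithelial sodium channel, on which Prss8 acts, rose more than any of the 7 genes. It reached 67.1 FPKM in PID+ cells against 9.47 in PID- cells (log2 change 2.70, intervals apart as deposited). The γ-subunit gene Scnn1g, whose protein is cleaved with the help of prostasin, reached 4.04 FPKM in PID+ cells against 0.669 in PID- cells (log2 change 1.59). Mst1r, the receptor of macrophage stimulating protein, a substrate of matriptase, reached 2.03 FPKM in PID+ cells against 0.042 in PID- cells (log2 change 1.54). The intervals of Scnn1g and of Mst1r overlapped between the conditions, and Mst1r had 17.8 estimated reads in PID- cells. The gene that fell was F2r, which encodes the thrombin receptor. It reached 22.4 FPKM in PID+ cells against 69.6 in PID- cells (log2 change -1.59, intervals overlapping).

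Rab25 (ENSMUSG00000008601.9, chr3:88542029-88548300, minus strand) is the epithelial member of the Rab11 subfamily and directs recycling of integrins and other cargo. Its FPKM was 109 in PID+ cells, with an interval from 42.7 to 176, and 32.6 in PID- cells, with an interval from 8.64 to 56.5. The ratio was 3.36 and the log2 change 1.72. Its widely expressed paralogues Rab11a and Rab11b did not share this rise, and both were at -1.01 with Gapdh set equal. Rab11a reached 189 FPKM in PID+ cells against 247 in PID- cells (log2 change -0.39). Rab11b reached 53.6 FPKM against 70.8 (log2 change -0.40), and 13.9% of the 50-base stretches of its transcripts occur in transcripts of other genes, so its level is less certain. Rab25 therefore made up 31.1% of the summed FPKM of the subfamily in PID+ and 9.28% in PID- cells, while the sum was 352 and 351 on the deposited scale. Setting Gapdh equal divides the PID+ sum by 1.54.

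In the list of 13 genes of the Rab11 family, its effectors and its motors, Rab25 was the 1 gene past 2-fold. With Gapdh set equal 4 of the others fell by 2-fold, as did 2408 of all 21959 genes. With a pseudocount of 0.1, Rab11fip4 was also at least 2-fold higher (log2 change 1.18), from 0.251 FPKM in PID+ cells against 0.0554 in PID- cells. It was chosen after its values were seen. The median log2 change was -0.06 (-0.67 on the Gapdh scale). Of the 11 other genes at a mean FPKM of 5 or more, Rab11fip3 was farthest from 0, with 8.42 FPKM in PID+ cells against 16.2 in PID- cells (log2 change -0.87). Myo5a, a myosin motor, reached 45.96 FPKM in PID+ cells against 74.8 in PID- cells (log2 change -0.69).

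Ap1m2 (ENSMUSG00000003309.10, chr9:21294275-21312337, minus strand) encodes the medium chain that defines the epithelial adaptor AP-1B. Its FPKM was 62.5 in PID+ cells, with an interval from 25.4 to 99.6, and 18.5 in PID- cells, with an interval from 4.85 to 32.05. The ratio was 3.39 and the log2 change 1.71. Ap1m1, the gene of the medium chain found in other cells too, changed in the opposite direction, with 11.8 FPKM in PID+ cells against 25.4 in PID- cells (log2 change -1.05, intervals overlapping). The balance between the paralogues differed, with Ap1m2 at 5.31 times the level of Ap1m1 in PID+ and 0.728 times in PID- cells, a difference of 7.30 times that no scaling of the libraries affects. In PID- cells the intervals of the pair overlapped, so their order there is not settled. Ap1m2 made up 84.1% of the medium chain FPKM in PID+ and 42.1% in PID- cells.

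The other subunits of the adaptor and its accessory proteins did not move with Ap1m2. Of the 11 genes listed, Ap1m2 rose, Ap1m1 fell and 9 stayed within 2-fold, at a median log2 change of 0.04, whereas on the Gapdh scale 3 genes fell and the median was -0.58. Ap1g2, a γ-subunit gene, reached 12.4 FPKM in PID+ cells against 7.18 in PID- cells (log2 change 0.72, or 0.15 with Gapdh set equal). Synrg, which encodes a γ-subunit binding protein, reached 6.85 FPKM in PID+ cells against 12.05 in PID- cells (log2 change -0.73). With the chromosome medians subtracted, the log2 change of Ap1m1 was -0.92 and no gene of the list fell by 2-fold.

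**Figure D2:**
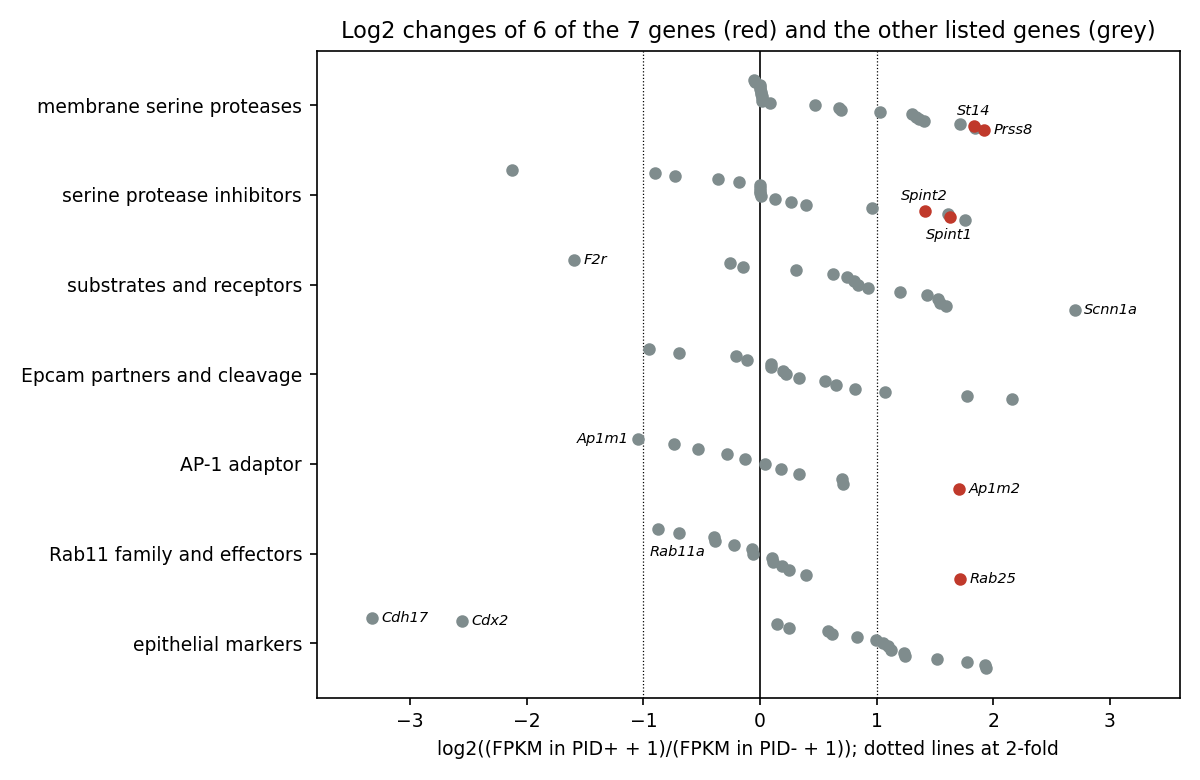
Log2 changes (PID+ over PID-, FPKM + 1) of the genes in 7 of the lists, with 6 of the 7 genes of interest in red (Epcam is in none of these lists) and the other listed genes in grey, each point being a gene. Rab25 and Ap1m2 stand apart from the other genes of their lists, none of which rose 2-fold on this scale, whereas St14 and Prss8 lie beside further proteases that rose. The vertical position within a list has no meaning.

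The 7 genes rose along with some of the epithelial markers. Of 17 epithelial markers, 9 rose, 2 fell and 6 stayed within 2-fold, with a median log2 change of 1.06. With Gapdh set equal, 3 were at least 2-fold higher, as were 259 of all 21959 genes, and the median was 0.43. Summed over the list, FPKM came to 9703 in PID+ cells against 5389 in PID- cells, and Krt18, the most abundant of these genes in PID+ cells, stood at 2843 against 1199 (log2 change 1.24). Krt19, the most abundant in PID- cells, stood at 2469 against 2073 (log2 change 0.25, or -0.37 with Gapdh set equal). Grhl2 and Elf3, which encode epithelial transcription factors, had changes like those of the 7 genes. Grhl2 reached 31.1 FPKM in PID+ cells against 7.38 in PID- cells (log2 change 1.94). Elf3 reached 103 against 26.3 (log2 change 1.93). The 2 that fell were intestinal genes, with Cdh17 at 1.67 FPKM in PID+ cells against 25.9 in PID- cells (log2 change -3.33, intervals apart) and Cdx2 at 0.542 against 8.04 (log2 change -2.55). Not all intestinal genes fell. Krt20, a keratin of differentiated intestinal epithelium, reached 158 FPKM in PID+ cells against 73.5 in PID- cells (log2 change 1.10, or 0.48 with Gapdh set equal). Vil1, a marker of the brush border, was near 0 in both conditions, at 0.175 and 0.0614. Krt19, Krt20 and Vil1 were chosen after their values were seen.

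Whether the 7 genes were higher relative to other epithelial transcripts depended on the transcript they were divided by. Of the 15 epithelial markers at a mean FPKM of 5 or more, 11 gave quotients that were higher in PID+ cells for all 7 genes. The 11 include Cdh17, which reached that mean only through PID- cells (1.67 FPKM in PID+ against 25.9 in PID- cells). Its range of 41.5 to 67.3 mainly describes its own fall. Divided by Cdh1 (E-cadherin), the 7 levels in PID+ cells were 1.23 to 1.99 times those in PID- cells, and the corresponding range was 1.13 to 1.83 for Krt18 and 2.25 to 3.65 for Krt19. The other 4 markers had risen as much as some of the 7 genes or more. Divided by Esrp2, a splicing regulator of epithelia, 6 of the 7 genes were higher, with a range from 0.886 to 1.44. Divided by Cldn7, 2 were higher (0.777 to 1.26), and 1 was higher when divided by Elf3 (0.683 to 1.11) or Grhl2 (0.635 to 1.03). Spint2 was lowest and Prss8 highest each time. These quotients do not depend on library scaling, and Cdh1 and Esrp2 were chosen after their values were seen. Whether the changes of the epithelial markers bear on the levels of the 7 genes was not tested.

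Most markers of other cell types were low, but in PID- cells Cd68, Col1a1, Col1a2 and Col3a1 exceeded Prss8 (5.07 FPKM there). In PID+ cells Cd68 was close to Prss8 (22.03 FPKM). Of 8 fibroblast markers, 4 fell in PID+ cells and none rose, with a median log2 change of -1.31 and a sum of 3.005 FPKM in PID+ cells against 34.1 in PID- cells. With a pseudocount of 0.1, 6 were at least 2-fold lower and the median was -2.41. On that scale 1523 of all 21959 genes were at least 2-fold lower and 1434 at least 2-fold higher, against 828 and 726 with a pseudocount of 1. Col1a2 and Col1a1 were the most abundant in PID- cells, at nearly the same level, and Col1a1 was the most abundant in PID+ cells. Col1a2 reached 0.0654 FPKM in PID+ cells against 11.9 in PID- cells (log2 change -3.60, intervals apart). Col1a1 was at 2.32 against 11.9 (log2 change -1.95), and Col3a1 at 0.339 against 6.35 (log2 change -2.46). Dcn was listed at 0 in PID+ and at 2.39 in PID- cells, and Lum at 0 in both. Of 6 endothelial markers 1 rose and none fell 2-fold, with a median of 0.06 and a sum of 4.08 FPKM in PID+ cells against 1.46 in PID- cells. Kdr, the one that rose, reached 3.33 FPKM in PID+ cells against 1.01 in PID- cells (log2 change 1.11, or 0.65 with Gapdh set equal, where none of the list was 2-fold higher). With a pseudocount of 0.1, 2 were. All 8 leukocyte markers stayed within 2-fold, with a median of 0.02 (Csf1r, chosen after its values were seen, was at -1.06 with a pseudocount of 0.1) and sums of 22.1 and 17.1 FPKM. Nearly all of this came from Cd68, at 21.8 against 16.8 (log2 change 0.35, or -0.24 with Gapdh set equal). Ptprc, chosen after its values were seen, was near 0 in both conditions, at 0.0264 and 0.0081, and Cd3e was listed at 0. Whether the fibroblast transcripts of the PID- cells bear on the levels of the 7 genes was not tested.

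The 7 genes all rose, and promoter sequences are shown for those where they were available. Of the 7 genes, 5 had a RefSeq promoter window (GRCm38.p6, 250 bases before to 50 after the start), and St14 and Prss8 are named only. The windows were searched on both strands for CACCTG, which reads CAGGTG on the other strand and is an E-box bound by Snai and Zeb proteins. They were also searched for ACCGGT, which reads the same on both strands and is the core of the motif of Grhl proteins. The motifs were chosen with the sequences in view. CACCTG was present in 20.2% of all 32851 windows, at least 2 times in 2.88% and at least 3 times in 0.365%. ACCGGT was present in 2.33%, and at least 2 times in 0.0548%. Of the 5 genes, 4 had CACCTG (Ap1m2 4 times, Spint2 3 times, Epcam and Rab25 2 times each) and 2 had ACCGGT (Epcam 2 times and Spint1 1 time). The stretches below lie before the start and outside annotated exons, run 5′ to 3′ on the strand of the gene, and have both motifs in capitals. For Ap1m2, the copy of CACCTG nearest to the start reaches an annotated exon and is not shown in capitals.
Epcam (chr17:87635784-87635973, plus strand): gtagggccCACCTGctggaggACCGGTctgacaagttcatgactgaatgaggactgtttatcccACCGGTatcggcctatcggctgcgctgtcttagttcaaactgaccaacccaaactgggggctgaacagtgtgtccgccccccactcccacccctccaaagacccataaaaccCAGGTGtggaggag
Spint1 (chr2:119237275-119237296, plus strand): tgggcaggACCGGTgggagtac
Spint2 (chr7:29281978-29282059, minus strand): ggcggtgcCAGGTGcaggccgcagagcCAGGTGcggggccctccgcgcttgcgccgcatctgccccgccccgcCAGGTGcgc
Rab25 (chr3:88548319-88548351, minus strand): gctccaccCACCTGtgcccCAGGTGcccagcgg
Ap1m2 (chr9:21312341-21312422, minus strand): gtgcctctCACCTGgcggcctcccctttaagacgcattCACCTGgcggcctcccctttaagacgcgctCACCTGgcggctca
In Ap1m2 the copies shown recur with a longer repeat, of which 28 bases are found 2 times. In Spint2 all 3 copies lie in the 82 bases before the start. A match describes the letters of the window and shows neither a binding site nor a cause of the levels, and a window without a match says only that these letters are not in it.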

How the data were processed

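RNA from 3 samples per condition was poly A selected and sequenced with an unstranded kit. Per the methods, adapters were trimmed (cutadapt) and reads mapped to GRCm38.p3 by TopHat, given protein coding genes only. All reads of a condition formed 1 alignment. The authors deposited the FPKM that CuffDiff derived from it, with interval bounds. The methods speak of repeated sequencing runs and the labels of 3 mice per condition. From the labels, treated rows were read as PID+ and untreated rows as PID-, which could not be checked on the transgene. In the table, 7 genes without an OK status were left out and 21734 genes had a symbol.

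Log2 changes used a pseudocount of 1. Called means at least 2-fold or 3-fold, the latter being the threshold of the study. The value of a read came from genes with 1 transcript, with a length correction of 160 bases, the best of 31 tried. It left 92.8% of low values in PID+ (531 values) and 93.2% in PID- cells (501 values) within 0.1 of a whole number, against 20% without steps. Reads of genes with several transcripts are approximate. Gene positions came from Gencode M21 (GRCm38). Named genes are the 7, their paralogues, in each of 10 lists up to 4 genes with the largest change that reach 1 FPKM in either condition, the most abundant gene of each marker list, and Gapdh, of which some are not reported here. The members and lists were chosen with earlier results of these data known. The alternatives scaled FPKM to equal totals, upper quartiles or Gapdh, subtracted chromosome medians, used a pseudocount of 0.1, kept only genes at a mean FPKM of 5 or more, or required intervals apart. The calculations were tested on simulated data. Python 3.11.15, numpy 2.4.6, pandas 2.3.3 and matplotlib 3.10.9 were used.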

Additional observations from a re-analysis of the deposited data

How the results depend on the processing

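All 7 genes had a log2 change above 0 under each of the 6 alternatives that give one. The range over the 7 genes was 1.42 to 2.10 with a pseudocount of 0.1, 1.31 to 1.83 with equal total FPKM, 1.41 to 1.93 with equal upper quartiles and 1.17 to 1.92 with chromosome medians subtracted, and a mean FPKM of at least 5 left it as it was. With equal Gapdh the 7 genes had a median log2 change of 1.09, 6 were at least 2-fold higher and 0 at least 3-fold higher. This scaling divides each PID+ over PID- ratio by 1.54, so that among all genes 259 rose and 2408 fell 2-fold (9.71% of the changed genes rose), against 726 and 828 (46.7%) as deposited. With equal total FPKM, and with chromosome medians subtracted, 4 of the 7 were at least 3-fold higher. When deposited intervals apart were required in place of a fold, 1 of the 7 was left. This was St14, whose intervals would overlap with equal total FPKM or equal Gapdh. Over all results, 33 of 65 moved with equal Gapdh, 9 of 64 with a mean FPKM of at least 5, 8 of 65 with a pseudocount of 0.1, 4 with equal total FPKM, 3 with chromosome medians subtracted and 0 with equal upper quartiles, and no result past 2-fold changed its direction. With equal Gapdh the median log2 change turned from 0.22 to -0.39 for the genes around Epcam and from 0.04 to -0.58 for the AP-1 genes. No endothelial marker reached a mean FPKM of 5, so that list has no median there.

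No paired analysis was possible because the table pools the samples of each condition, and leaving out each replicate in turn was not run for the same reason. The intervals cover the error model of CuffDiff and not the spread between mice.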
